A study of Arabidopsis thaliana with 12 samples.

Results

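NAC transcription factors are one of the largest plant-specific families of DNA-binding proteins. The members were the rows of a gene table whose name begins NAC or ANAC followed by a number, or whose description calls the product a NAC domain-containing protein. That rule took 69 of 32833 rows, 65 of them by name and 4 only by description (NTL8, anac046, anac075 and anac096). Of the 69, 38 reached 1 RPKM (reads scaled to the transcript's length and the library's depth) in at least 3 libraries and are described with tests. The other 31 stayed below that level, and 6 of those, among them the fibre wall regulators NAC043 (NST1), NAC012 (SND1) and NAC066 (NST2), were listed at 0 in every library.

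The libraries were made from poly(A) RNA of whole Arabidopsis thaliana Col-0 seedlings, 10 days old. They fell into 4 groups of 3: wild type before treatment (0 hours), wild type after 2.5 hours of heat, the mutant line atdamt1 before treatment, and atdamt1 after 2.5 hours of heat. The labels give neither the temperature nor the kind of allele, the study's title ties the mutant to a METTL4 adenine methylase, and no seedlings kept at the control temperature for 2.5 hours were analysed here, so heat and elapsed time cannot be told apart. Depth ran from 21720000 to 23519000 reads. AT1G19340, the METTL4 homologue, had mean levels of 2.87 RPKM in wild type control, 1.39 RPKM in wild type heat, 1.002 RPKM in atdamt1 control and 0.342 RPKM in atdamt1 heat. Its lower level in atdamt1 was not called in either treatment by the fit described below. Chloroplast-encoded transcripts took 0.320 to 1.07% of the summed RPKM of all genes in the 6 control libraries. After heat they took 0.628%, 4.05% and 0.390% in wild type libraries 1 to 3, and 6.01%, 3.17% and 5.58% in those of atdamt1. Seed and flower markers were near 0. Root marker levels are given beside NAC021.

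A NAC protein binds DNA through a conserved N-terminal domain, named after NAM, ATAF and CUC2, and activates or represses genes through a variable C-terminal part. Some members carry a membrane anchor and reach the nucleus only once it is cut or released. Different members steer drought and abscisic acid (ABA) responses, leaf senescence, organ boundaries and the differentiation of xylem vessels. A group of members that shape boundaries, lateral roots and leaf ageing is held down by a microRNA, miR164, which pairs with their coding sequence.

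The miR164 sequences are shown because they mark which members belong to that group. Capitals mark the seed, bases 2 to 8, of miR164a (chr2:19520770-19520790, plus strand, TAIR10.1, RefSeq annotation). The same 21 bases make up miR164b-5p, and miR164c-5p differs from it in the last base.
miR164a: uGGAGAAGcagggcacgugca
miR164c-5p: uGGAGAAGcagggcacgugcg

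Searching every annotated mRNA for a 21-base site with at most 4 unpaired bases found one in 13 of 31346 loci with an mRNA (0.0415%) and in 6 of the 69 members. All 6 sites lay within a single coding exon. Capitals below mark the bases that do not pair with miR164a, written 5′ to 3′ on the mRNA's strand.
NAC021: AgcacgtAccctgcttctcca
NAC054: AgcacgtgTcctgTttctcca
NAC079: tTTacgtgccctgcttctcca
NAC92: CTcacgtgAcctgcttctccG
NAC098: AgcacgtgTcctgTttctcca
NAC100: tCTacgtgccctgcttctcca

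In the same order the sites lie at chr1:20947142-20947162 (minus strand), chr3:5111137-5111157 (plus), chr5:2436958-2436978 (plus), chr5:15858797-15858817 (minus), chr5:21902301-21902321 (minus) and chr5:24701687-24701707 (minus). NAC054 (CUC1) and NAC098 (CUC2), the partners that set cotyledon boundaries, carry the same 21 bases. The bases opposite the seed are all paired in NAC021, NAC079, NAC92 and NAC100, and 1 of them is unpaired in NAC054 and in NAC098. A G opposite a U counted as unpaired.

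The 250 bases before the gene start are shown for NAC078 and NAC062, a pair of membrane-bound factors whose transcripts rose in heat. Heat shock factors bind inverted repeats of GAA, so each strand was searched for GAANNTTC and for a longer form in which it is followed by NNGAA. Capitals mark the longer match in NAC078 (promoter at chr5:1243434-1243683, plus strand, TAIR10.1) and the shorter match in NAC062 (chr3:18364960-18365209, minus strand).
NAC078: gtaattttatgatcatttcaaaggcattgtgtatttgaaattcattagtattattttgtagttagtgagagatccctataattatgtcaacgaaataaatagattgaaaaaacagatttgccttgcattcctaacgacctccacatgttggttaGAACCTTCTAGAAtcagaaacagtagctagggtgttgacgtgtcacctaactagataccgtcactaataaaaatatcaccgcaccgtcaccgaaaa
NAC062: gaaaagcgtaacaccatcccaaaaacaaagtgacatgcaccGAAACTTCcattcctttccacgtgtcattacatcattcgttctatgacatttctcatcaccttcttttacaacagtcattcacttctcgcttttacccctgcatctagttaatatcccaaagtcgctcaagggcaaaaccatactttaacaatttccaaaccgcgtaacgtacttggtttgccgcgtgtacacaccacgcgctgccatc

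Different NAC genes dominated before and after heat, and the shift was of the same kind in both genotypes. The same 9 members were higher after heat in wild type and in atdamt1: NAC002 (ATAF1), NAC029 (NAP), NAC055, NAC062 (NTL6), NAC078, NAC081 (ATAF2), NAC089, NAC091 (TIP) and NAC101 (VND6). Led by NAC083 (VNI2), NAC021 (NAC1), NAC041 and NAC082 (VNI1), 13 were lower in both, and in wild type only these 4 fell by at least 1 on the log2(RPKM + 1) scale. The call was an adjusted p below 0.05 in limma, fitted to log2(RPKM + 1) of 17628 genes over all 12 libraries with Benjamini-Hochberg adjustment. In wild type 9 members were called higher, against a background of 9.41% of all genes tested, and 13 lower, against 52.6%. In atdamt1 9 were called higher (background 10.3%) and 14 lower (background 56.2%). Called higher in both genotypes were 7.73% of all genes, and lower in both 48.2%.

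The deposited RPKM values fell across the transcriptome after heat, with a median log2 change over all genes tested of -0.413 in wild type and -0.436 in atdamt1. The median over the 38 members was -0.30 in wild type and -0.008 in atdamt1. When libraries were rescaled by the median of their ratios, which brings the median of all genes to -0.002 and 0.010, the 9 rises were called in both genotypes, and so were 4 falls, those of NAC021, NAC041, NAC082 and NAC083. The same 9 and the same 4 were called in both genotypes after quantile scaling. The median-of-ratios counts over the 38 members were 10 higher and 4 lower in wild type (all genes 28% and 27.4%) and 14 and 5 in atdamt1 (27.5% and 27.3%). The quantile counts were 13 and 5 in wild type (22.7% and 26.5%) and 16 and 5 in atdamt1 (23% and 29.4%). Of the remaining falls, those of ANAC050 and NAC017 turned sign in at least 1 genotype under rescaling, and ANAC13 did so in wild type after quantile scaling.

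A description free of scaling is each member's share of the summed RPKM of all 69. That sum was 365 ± 27.3 RPKM in wild type control and 384 ± 51.7 after heat, and 343 ± 53.4 and 344 ± 49.3 in atdamt1 (mean ± SD, n = 3 each). NAC083 held the largest share in 5 of the 6 control libraries, ANAC102 in the other. NAC002 held the largest in all 6 heat libraries. In wild type the share of NAC083 went from 17.3% ± 3.20 to 3.23% ± 1.30 and that of NAC002 from 6.93% ± 0.547 to 27.5% ± 4.66. In atdamt1 NAC083 went from 16.5% ± 1.92 to 3.35% ± 0.893 and NAC002 from 6.87% ± 0.485 to 23.7% ± 4.38 (SD, n = 3). The NAC002 to NAC083 ratio lay between 0.323 and 0.547 in the control libraries and between 4.51 and 18.9 in the heat libraries. Both genes were picked from these same libraries, so this ratio restates the shift and adds no support for it.

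**Figure D1:**
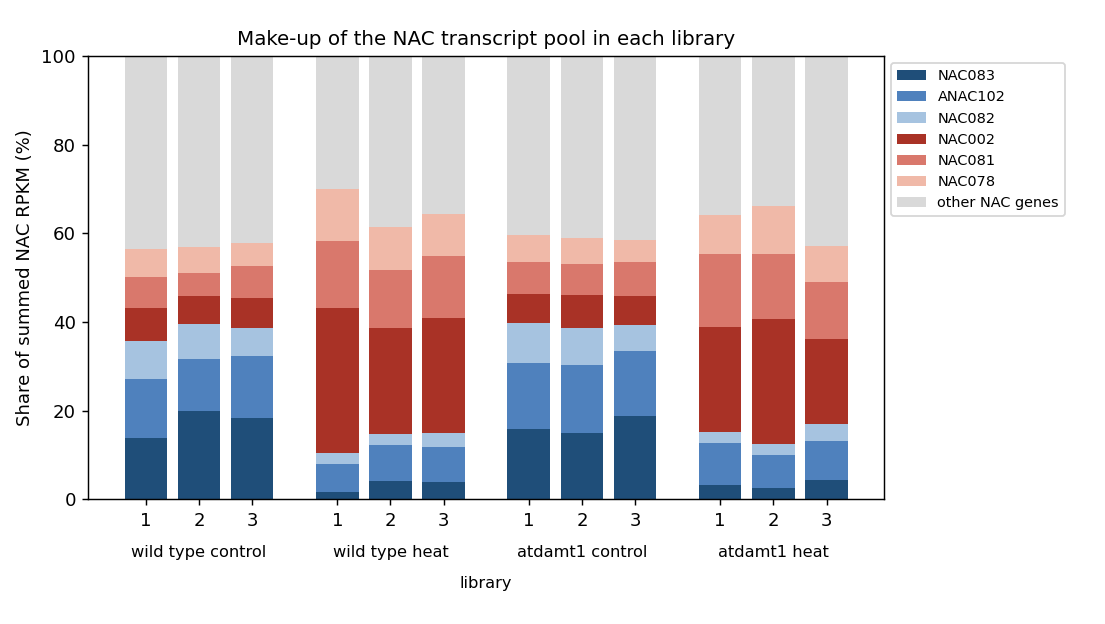
Share of the summed RPKM of the 69 NAC genes (%, y axis) held by 6 leading members and by the others together, 1 bar per library (x axis, 3 libraries in each of 4 groups). NAC083, ANAC102 and NAC082 shrink and NAC002, NAC081 and NAC078 widen in every heat library, and NAC002 goes from 6.93% to 27.5% of the pool in wild type.

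The ABA and dehydration members split. NAC002 (AT1G01720, chr1:267993-269819, plus strand), an activator in drought, ABA and carbon-starvation responses, stood at 26.9, 21.9 and 27.1 RPKM in the wild type controls and at 145, 81.5 and 95.3 RPKM after heat. In atdamt1 it stood at 18.8, 25.6 and 26.3 RPKM before heat and at 79.4, 112 and 58.2 RPKM after it. Every heat library lay above every control library. On the log2(RPKM + 1) scale it rose by 2.0 ± 0.25 (SE; adjusted p = 3.01e-05) in wild type and by 1.74 ± 0.25 (adjusted p = 7.98e-05) in atdamt1.

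NAC081 (AT5G08790), a relative of NAC002 known from wounding and pathogen responses, read 24.6, 17.9 and 28.3 RPKM in wild type control and 66.2, 44.8 and 51.1 RPKM after heat. Its atdamt1 values were 21.1, 24.5 and 29.5 RPKM against 54.7, 58.4 and 38.7 RPKM. The groups did not overlap, and the log2 change was 1.17 ± 0.21 (adjusted p = 0.000443) in wild type and 0.98 ± 0.21 (adjusted p = 0.0014) in atdamt1. NAC055 (AT3G15500), a factor of jasmonate, ABA and drought signalling, was low before heat at 0.269, 0.646 and 0.797 RPKM in wild type and 0.303, 0.259 and 0.566 RPKM in atdamt1. After heat it read 3.10, 3.13 and 3.13 RPKM in wild type and 3.92, 3.16 and 4.35 RPKM in atdamt1. It rose by 1.41 ± 0.15 (adjusted p = 1.22e-05) and 1.80 ± 0.15 (adjusted p = 2.01e-06), and the added 1 RPKM makes these changes smaller than the ratio of the levels. NAC055 passed the expression filter only through its heat libraries. Its close relative NAC019 stayed below the filter, between 0 and 0.787 RPKM in all 12 libraries.

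The other ABA list members went the other way. ANAC102, linked to low oxygen and chloroplast signals, read 48.1, 40.3 and 55.2 RPKM in wild type control and 27.3, 28.0 and 29.0 RPKM after heat. It was called lower by limma in wild type (log2 change -0.74 ± 0.13, adjusted p = 0.000465) and in atdamt1 (-0.77 ± 0.13, adjusted p = 0.000315), but not under median-of-ratios scaling, where the changes were -0.25 and -0.25 (adjusted p = 0.119 and 0.128). NAC032, another stress factor of the same clade, fell by 0.62 ± 0.19 (adjusted p = 0.0138) and by 0.89 ± 0.19 (adjusted p = 0.00159), and its call too was absent under median-of-ratios scaling. NAC002, NAC032, NAC081 and ANAC102 are the ATAF clade, so within that clade 2 members rose and 2 fell in each genotype. In all, 3 of the 5 ABA members that passed the filter were called higher and 2 lower in each genotype (all genes 9.41% and 52.6% in wild type, 10.3% and 56.2% in atdamt1).

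**Figure D2:**
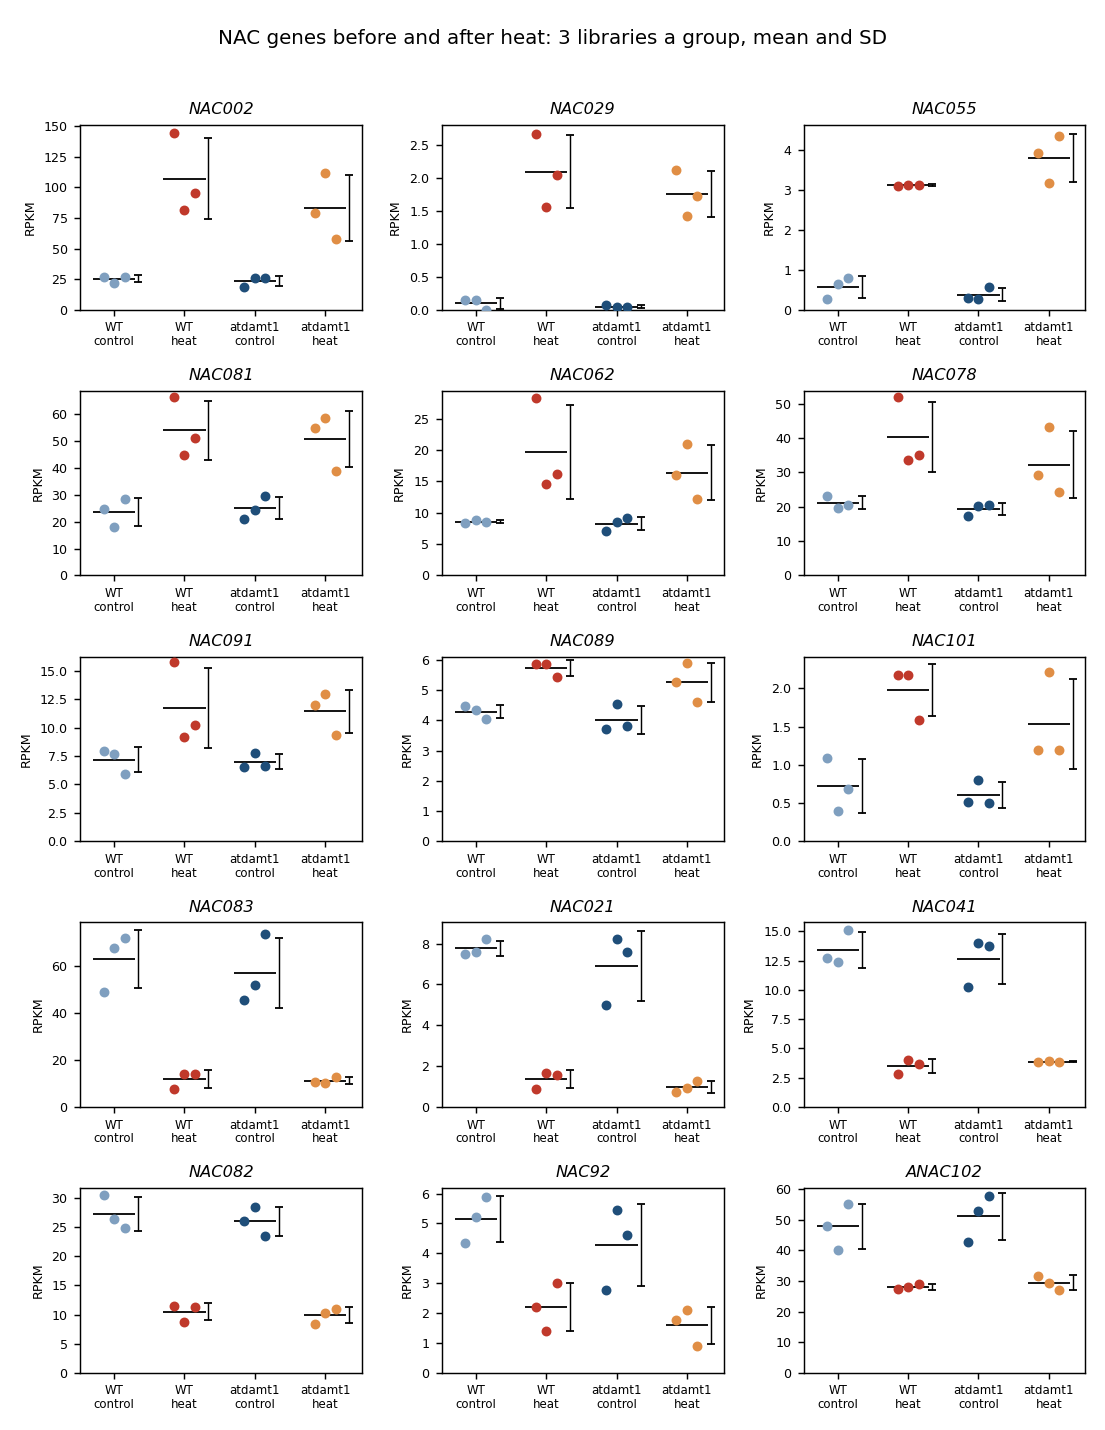
RPKM (y axis, linear from 0) of 15 NAC genes in each library (points, 3 a group), with the group mean (line) and SD (bar), for control and heat in wild type (WT) and atdamt1. The first 9 panels are the members higher in both genotypes, where NAC002 goes from 25.3 to 107 RPKM on average in wild type. The last 6 are lower in both, where NAC083 goes from 63.2 to 11.9 RPKM.

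Among 7 senescence members, 1 was higher and 2 were lower in each genotype (all genes 9.41% and 52.6% in wild type, 10.3% and 56.2% in atdamt1). NAC029, or NAP, an activator of leaf ageing and ABA synthesis, had 4, 4 and 0 reads in the wild type controls and 75, 46 and 59 reads after heat, or 2.67, 1.57 and 2.05 RPKM. In atdamt1 it had 2, 1 and 1 reads before heat and 62, 39 and 48 reads after it, or 2.12, 1.43 and 1.73 RPKM. Its log2(RPKM + 1) change was 1.49 ± 0.15 (adjusted p = 7.75e-06) in wild type and 1.39 ± 0.15 (adjusted p = 1.15e-05) in atdamt1, and it too passed the filter only through heat. NAC92 (ORE1), the activator of age-dependent leaf death, moved the opposite way, by -0.96 ± 0.25 (adjusted p = 0.00518) and -1.02 ± 0.25 (adjusted p = 0.00334). Under median-of-ratios scaling NAC92 was -0.58 in wild type (adjusted p = 0.0557) and -0.65 in atdamt1 (adjusted p = 0.0368).

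NAC083 (AT5G13180, chr5:4196256-4197940, plus strand), or VNI2, is known as a repressor that binds the vessel regulator VND7 and as a brake on leaf ageing. Its levels were 49.2, 68.0 and 72.3 RPKM in wild type control and 7.66, 14.1 and 14.0 RPKM after heat. In atdamt1 they were 45.8, 52.0 and 73.9 RPKM and then 10.8, 10.0 and 12.9 RPKM. The highest heat value lay far below the lowest control value. The log2(RPKM + 1) change was -2.34 ± 0.24 (adjusted p = 7.6e-06) in wild type and -2.23 ± 0.24 (adjusted p = 1.01e-05) in atdamt1, and -1.86 and -1.71 under median-of-ratios scaling. The group mean in control was 5.29 times that in heat in wild type and 5.08 times in atdamt1. The senescence members that did not pass the threshold were NAC59 (ORS1), NAC047 (SHYG), anac046 and ANAC087, with log2 changes from -0.49 to 0.33 in wild type and from -0.03 to 0.59 in atdamt1.

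Of 5 tested genes on the list of senescence and chlorophyll loss, 1 rose and 2 fell in each genotype, with 52.6% and 56.2% of all genes lower in wild type and atdamt1. ERD1, a Clp protease subunit named for dehydration, rose by 0.68 ± 0.18 (adjusted p = 0.00606) in wild type, while NYC1, a chlorophyll b reductase, fell by 1.03 ± 0.15 (adjusted p = 0.000104). The senescence marker SAG12, a cysteine protease, was listed at 0 in every library.

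Of 11 membrane-bound members that passed the filter, 4 rose and 3 fell in each genotype (all genes 9.41% and 52.6% in wild type, 10.3% and 56.2% in atdamt1). Under median-of-ratios scaling 5 rose in wild type and 6 in atdamt1, with none falling (all genes 28% and 27.4%, then 27.5% and 27.3%). NAC062 (AT3G49530), a plasma membrane-anchored factor released in cold and in unfolded-protein stress, read 8.41, 8.87 and 8.48 RPKM in wild type control and 28.4, 14.6 and 16.2 RPKM after heat. Its atdamt1 values were 7.14, 8.53 and 9.16 RPKM and then 16.1, 21.0 and 12.2 RPKM. It rose by 1.05 ± 0.23 (adjusted p = 0.00167) and by 0.88 ± 0.23 (adjusted p = 0.00468), with no overlap of the groups.

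NAC078 (AT5G04410), which with its homologue NAC053 activates proteasome subunit genes, read 23.3, 19.7 and 20.6 RPKM in wild type control and 52.0, 33.6 and 35.0 RPKM after heat. In atdamt1 it read 17.4, 20.3 and 20.5 RPKM and then 29.3, 43.2 and 24.3 RPKM. It rose by 0.87 ± 0.20 (adjusted p = 0.00273) and 0.67 ± 0.20 (adjusted p = 0.0114). NAC053 was not called in either, at -0.26 ± 0.19 and -0.02 ± 0.19. An annotated antisense locus, AT5G00965, shares 375 bases with NAC078. Its mean level was 0.0409 RPKM in wild type control, 0.966 RPKM after heat, and 0.0408 and 1.03 RPKM in atdamt1. The libraries were directional, but whether counting used the strand is not given in the sources used here, so reads in the shared stretch cannot be assigned.

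NAC091 (TIP), first known as a partner of a viral coat protein, rose by 0.61 ± 0.18 (adjusted p = 0.0124) and 0.63 ± 0.18 (adjusted p = 0.01). NAC089, which acts in endoplasmic reticulum stress and sugar responses, rose by 0.35 ± 0.11 (adjusted p = 0.0141) and 0.32 ± 0.11 (adjusted p = 0.0205). The rises of these last members were small enough that 1 library decided a call. NAC091 in wild type was 0.50 without control library 3 (adjusted p = 0.0516), and NAC089 in atdamt1 lost its call without control library 1 or 3 or heat library 2 (log2 changes 0.27, 0.29 and 0.24).

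NAC017 and ANAC13, the anchored factors that carry mitochondrial stress signals to the nucleus, fell by 0.51 ± 0.10 (adjusted p = 0.000634) and 0.53 ± 0.18 (adjusted p = 0.0205) in wild type and by 0.38 ± 0.10 (adjusted p = 0.00436) and 0.52 ± 0.18 (adjusted p = 0.02) in atdamt1. Under median-of-ratios scaling NAC017 was at -0.05 in wild type and 0.12 in atdamt1, and neither gene was called. Of 7 tested genes on the mitochondrial stress list, 3 rose and 1 fell in each genotype (all genes 9.41% and 52.6% in wild type, 10.3% and 56.2% in atdamt1). OM66, an outer mitochondrial membrane protein that passed the filter only through heat, rose by 1.17 ± 0.18 (adjusted p = 0.000169) in wild type, and ABCB4, an auxin transporter, fell by 1.37 ± 0.26 (adjusted p = 0.000719).

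NAC68 (NTM1), a regulator of cell division, lies 1072 bases from NAC69 (NTM2) on chromosome 4. NAC68, which passed the filter only through its control libraries, fell by 0.68 ± 0.21 (adjusted p = 0.0139) and 0.77 ± 0.21 (adjusted p = 0.00624) in wild type and atdamt1. NAC69 was at -0.02 ± 0.14 and 0.10 ± 0.14, and under median-of-ratios scaling it was called higher (0.39, adjusted p = 0.0243, and 0.55, adjusted p = 0.00407). The last anchored members, NAC001 and NAC014, were not called, at -0.24 and -0.20 in wild type and 0.09 and 0.00 in atdamt1.

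In 7 of the 9 members that rose, the highest wild type heat value came from library 1, and in 6 the lowest came from library 2. In atdamt1, 7 of the 9 were highest in heat library 2 and lowest in heat library 3. Wild type heat library 2 had the larger chloroplast share of its group (4.05%) and atdamt1 heat library 2 the smaller of its own (3.17%). With the chloroplast share as a covariate, an alternative chosen after the data were seen, NAC002 rose by 2.18 in wild type and 2.53 in atdamt1, and 9 members were called higher in wild type and 7 in atdamt1.

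**Figure D3:**
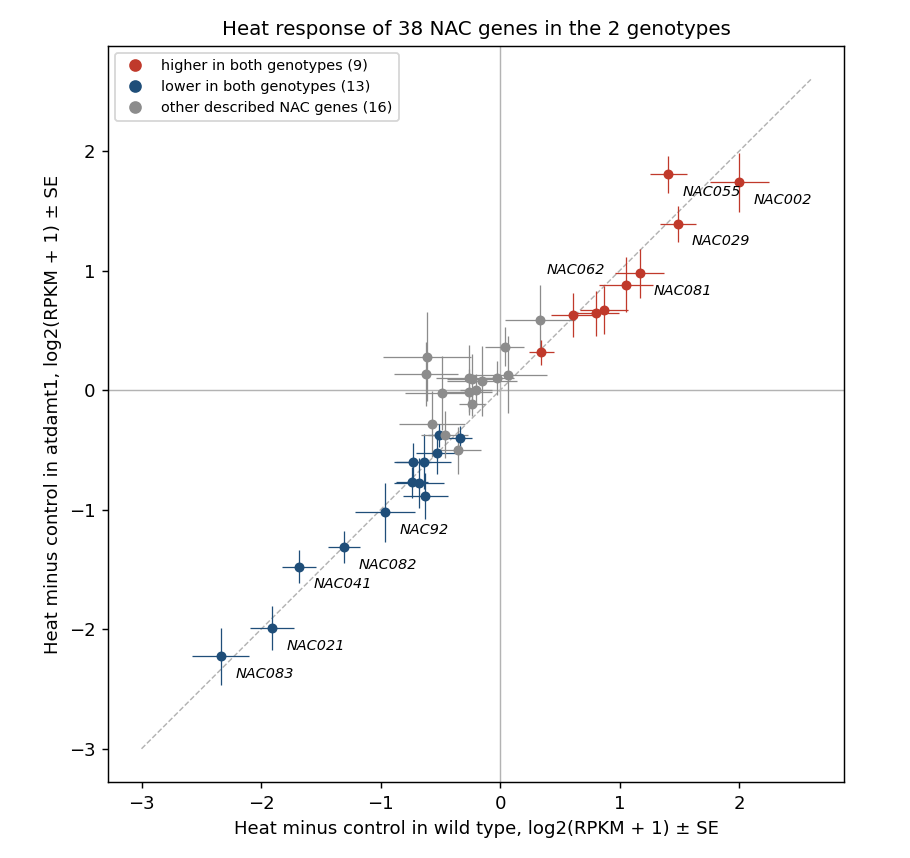
Heat minus control of log2(RPKM + 1) for the 38 tested NAC genes in wild type (x axis) and atdamt1 (y axis), with SE bars and the line of equal change (dashed). Red points are the 9 members higher in both genotypes, blue points the 13 lower in both, and grey points the other 16. The points run along the line, from NAC083 at -2.34 and -2.23 to NAC002 at 2.0 and 1.74.

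NAC101, or VND6, a master switch of metaxylem vessel formation, read 1.09, 0.390 and 0.685 RPKM in wild type control and 2.17, 2.17 and 1.59 RPKM after heat. In atdamt1 it read 0.518, 0.794 and 0.494 RPKM and then 1.20, 2.21 and 1.19 RPKM. The groups did not overlap, though NAC101 passed the filter only through heat. It rose by 0.81 ± 0.19 (adjusted p = 0.00307) and by 0.64 ± 0.19 (adjusted p = 0.0107), and by 0.46 (no longer called) in atdamt1 without heat library 2. Of the 14 xylem and secondary wall NAC genes 2 passed the filter, and the second, NAC010 (SND3), was at -0.15 ± 0.29 and 0.08 ± 0.29. In a fit without a filter, where 63 members had a value, 11 were higher and 16 lower in wild type (all genes 7.42% and 39.7%) and 12 and 14 in atdamt1 (7.83% and 41.5%). There NAC030 (VND7), the protoxylem switch, rose in wild type by 0.40 ± 0.07 from 2, 4 and 1 reads to 16, 20 and 11 reads (adjusted p = 0.000598). In atdamt1 NAC030 had 3, 1 and 1 reads and then 6, 2 and 8 reads and was not called (0.13 ± 0.07), and the difference of the responses was not called either (-0.28, adjusted p = 0.967). NAC073 (SND2), a regulator of cellulose genes in fibres, was called higher in both genotypes in that fit, by 0.46 ± 0.17 (adjusted p = 0.0428) and 0.51 ± 0.17 (adjusted p = 0.0279). In wild type its groups overlapped, with 11, 13 and 5 reads before heat and 11, 30 and 46 after it. In atdamt1 they did not, with 4, 3 and 11 reads and then 21, 25 and 23. The other calls below the filter were anac096, an ABA factor, lower in wild type (-0.60 ± 0.10, adjusted p = 0.000603), NAC054 and NAC100 (described with miR164), and NAC004 and anac075, both higher in atdamt1.

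Of the 7 genes on the secondary wall and xylem list, 6 passed the filter and were called higher in both genotypes (9.41% and 10.3% of all genes were). Of these, 3 (MYB46, CESA7 and CESA8) passed only through the heat libraries, where they are high, so the filter itself favoured a difference. The other 3 (CESA4, XCP1 and XCP2) passed in both treatments, and they were called higher in both genotypes under median-of-ratios scaling too. XCP2, a cysteine protease of dying vessel cells, ranged from 3.90 to 5.78 RPKM in wild type control and from 21.8 to 41.9 RPKM after heat, a log2 change of 2.39 ± 0.48 (adjusted p = 0.00113). The list summed to 8.98 to 14.5 RPKM in wild type control and 44.5 to 88.5 RPKM after heat, and to 3.88 to 20.6 and 45.3 to 61.3 RPKM in atdamt1. In whole seedlings, more or fewer cells of a type and more or less RNA per cell cannot be told apart.

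NAC021, or NAC1 (AT1G56010, chr1:20946571-20949281, minus strand), an auxin-responsive factor of lateral root formation, read 7.48, 7.61 and 8.20 RPKM in wild type control and 0.873, 1.66 and 1.57 RPKM after heat. In atdamt1 it read 4.97, 8.21 and 7.59 RPKM and then 0.723, 0.917 and 1.28 RPKM. The groups lay far apart. It fell by 1.91 ± 0.18 (adjusted p = 5.27e-06) and by 1.99 ± 0.18 (adjusted p = 3.57e-06). The group mean in control was 5.69 times that in heat in wild type and 7.12 times in atdamt1. Of 5 root markers, 2 were called lower in wild type and 3 in atdamt1, near the share over all genes (52.6% and 56.2%), and WER passed the filter only through control. The summed level of the 5 was 1587 to 2057 RPKM in wild type control and 185 to 434 RPKM after heat, most of it PYK10, a root beta-glucosidase. Without PYK10 the sum was 11.8 to 32.4 and 7.18 to 9.36 RPKM in wild type, and 12.98 to 16.1 and 5.89 to 6.82 RPKM in atdamt1. SCR, a regulator of the root endodermis, fell by 1.88 ± 0.13 in wild type (adjusted p = 6.64e-07), while SHR and CASP1, other markers of inner root layers, were not called in either genotype. The part of root tissue in the changes of NAC021 and NAC083 was not tested.

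Of the members with a miR164 site, 3 passed the filter, and of those NAC021 and NAC92 were called lower in both genotypes (all genes 48.2%). The 6 members with a site summed to 16.02 to 17.5 RPKM in wild type control and 3.99 to 5.61 RPKM after heat, and to 9.14 to 17.1 and 3.09 to 4.25 RPKM in atdamt1. NAC92 read 4.35, 5.22 and 5.90 RPKM and then 2.21, 1.401 and 3.02 RPKM in wild type, and 2.75, 5.44 and 4.62 RPKM and then 1.76, 2.10 and 0.892 RPKM in atdamt1. NAC079, with 2.55, 1.505 and 2.32 RPKM in wild type control and 0.714, 1.81 and 0.884 RPKM after heat, was not called (-0.57 ± 0.27, adjusted p = 0.0916, and -0.28 ± 0.27 in atdamt1, adjusted p = 0.379).

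NAC054, NAC098 and NAC100 stayed below the filter, so the fit without one is their test. NAC054 (CUC1) had 6, 17 and 8 reads and then 2, 2 and 0 reads in wild type, and 5, 19 and 6 and then 0, 1 and 0 reads in atdamt1. It was called lower in both, by -0.39 ± 0.13 (adjusted p = 0.0329) and -0.41 ± 0.13 (adjusted p = 0.0259). NAC100 was called lower in wild type, by -0.69 ± 0.20 (adjusted p = 0.0147), with no call for the difference between genotypes (0.37, adjusted p = 0.967), and NAC098 (CUC2) was called in neither. Control and heat libraries did not overlap for 4 of the 6 in wild type (NAC021, NAC054, NAC92, NAC100) and for 3 in atdamt1 (NAC021, NAC054, NAC92), against 56% and 58.6% of all genes tested that were lower without overlap. Those shares cover only genes that passed the filter, which NAC054, NAC098 and NAC100 did not, so the sets are unlike. AT3G12977, a locus outside the rule, carries a site with 3 unpaired bases. It passed the filter only through control libraries and fell in wild type by 0.92 ± 0.21 (adjusted p = 0.00265). It was at -0.33 ± 0.21 in atdamt1. The precursor loci of miR164a and miR164c were listed at 0 in every library and that of miR164b in all but 1, a wild type heat library at 0.285 RPKM, and mature microRNAs are not captured in poly(A) libraries. NAC031 (CUC3), the boundary gene with no site in the search, passed the filter only through its control libraries. It was called lower in atdamt1 (-0.50 ± 0.19, adjusted p = 0.0374), where control and heat overlapped and the call was lost without control library 2 or 3 or heat library 1 or 3 (-0.41, -0.46, -0.55 and -0.34). In wild type it was at -0.35 ± 0.19 (adjusted p = 0.134).

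**Figure D4:**
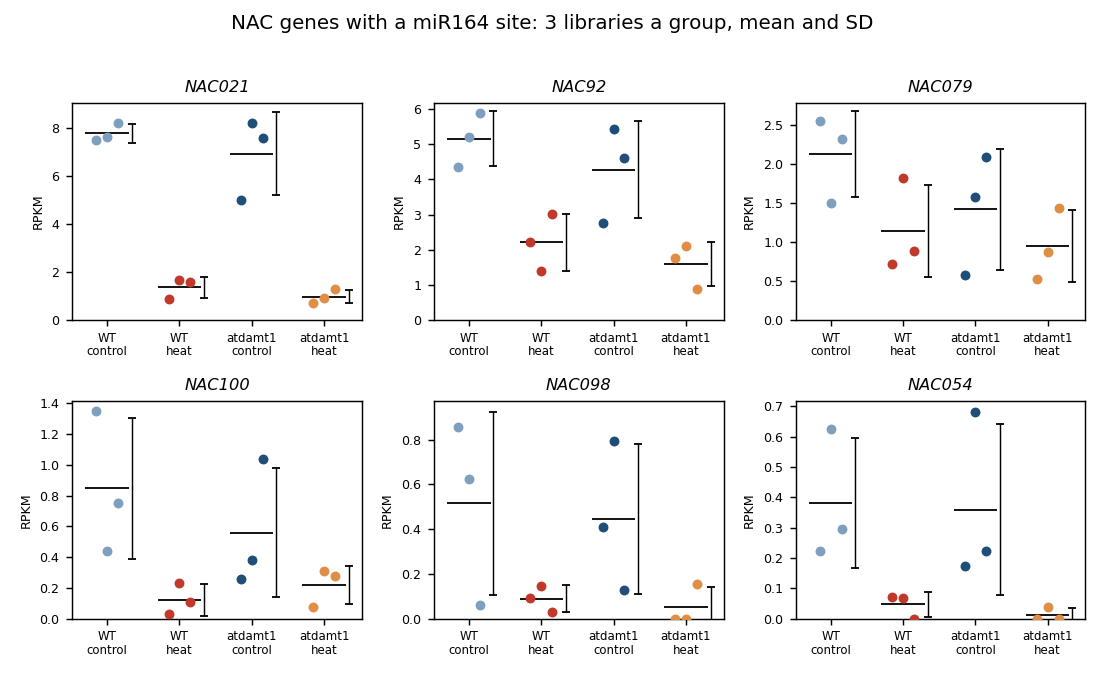
RPKM (y axis, linear from 0) of the 6 NAC genes that carry a miR164 site, in each library (points, 3 a group) with the group mean (line) and SD (bar). NAC021 separates most clearly, with 7.48 to 8.20 RPKM in wild type control and 0.873 to 1.66 RPKM after heat, while NAC079 overlaps between control and heat in both genotypes.

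NAC082, known as VNI1 and as the mediator of the ribosomal stress response, read 30.6, 26.4 and 24.9 RPKM in wild type control and 11.4, 8.76 and 11.3 RPKM after heat. In atdamt1 it read 26.1, 28.5 and 23.5 RPKM and then 8.40, 10.3 and 11.03 RPKM. It fell by 1.31 ± 0.13 in wild type (adjusted p = 7.73e-06) and by 1.31 ± 0.13 in atdamt1 (adjusted p = 6.91e-06), and by 0.84 and 0.81 under median-of-ratios scaling. NAC041 read 12.7, 12.4 and 15.2 RPKM in wild type control and 2.83, 4.02 and 3.68 RPKM after heat. Its atdamt1 values were 10.2, 14.0 and 13.8 RPKM and then 3.84, 3.92 and 3.87 RPKM. It fell by 1.68 ± 0.14 (adjusted p = 1.73e-06) and by 1.48 ± 0.14 (adjusted p = 4.1e-06), and no heat library of either gene reached a control value.

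Of 3 flowering and cold members, 2 fell in each genotype with the deposited values (all genes 52.6% in wild type and 56.2% in atdamt1). None was called lower under median-of-ratios scaling (all genes 27.4% and 27.3%). NAC035 (LOV1), a repressor of flowering that also acts in cold, fell by 0.73 ± 0.15 (adjusted p = 0.00145) and 0.60 ± 0.15 (adjusted p = 0.00479). ANAC050 and ANAC052, partners of a histone demethylase in flowering control, stand in tandem with NAC053 on chromosome 3, with gaps of 129 and 14 bases. ANAC050 fell by 0.34 ± 0.10 (adjusted p = 0.0116) and 0.40 ± 0.10 (adjusted p = 0.00397), but stood at 0.11 and 0.08 under median-of-ratios scaling. ANAC052 was at -0.23 ± 0.11 and -0.11 ± 0.11 and was not called. NAC055 lies 7235 bases from NAC056 on the same chromosome, with 1 gene between them, and NAC056 was at 0.04 ± 0.16 in wild type and 0.36 ± 0.16 in atdamt1, neither called.

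In total 23 of the 38 members were called in at least 1 heat comparison and 15 in neither. The matching share of all genes was not computed, but it cannot be below that in atdamt1 alone, with 10.3% called higher and 56.2% lower. The count of 23 therefore does not exceed the background. For members that passed the filter through 1 treatment, the filter itself favoured a difference between treatments. Without those, 30 members were left, of which 6 were higher and 12 lower in each genotype (all genes 9.41% and 52.6% in wild type, 10.3% and 56.2% in atdamt1). Of the 38, 17 stayed below 5 RPKM in every library. Control and heat did not overlap for 9 members higher and 16 lower in wild type (all genes 11% and 56%) and for 10 and 14 in atdamt1 (11.4% and 58.6%).

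In the 250 bases before the gene start, GAANNTTC was present in 9.11% of 17230 promoters of tested genes, in 7 of the 38 members and in 4 of the 9 members that rose. Those 4 were NAC062, NAC078, NAC091 and NAC101, with the match beginning 209, 96, 141 and 160 bases before the start. NAC002, NAC029, NAC055, NAC081 and NAC089 rose without a match. NAC001, NAC053 and NAC69 had a match and were called in neither heat comparison with the deposited values. The inverted order TTCNNGAA was present in 7.56% of tested promoters and in 3 members. The longer form, GAANNTTC followed by NNGAA, overlaps both shorter forms. On either strand it was present in 0.429% of tested promoters and in NAC078 alone among the 38, from base 96 to base 84 before the start. ACGTG, the core of ABA response elements, was present in 23.2% of tested promoters and in 14 of the 38, among them NAC029, NAC062, NAC078 and NAC091 of those that rose. These matches describe letters in a window.

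HSFA7A, a heat shock factor on the list of genes tied to NAC019, ranged from 9.43 to 15.4 RPKM in wild type control and from 360 to 402 RPKM after heat, a log2 change of 4.88 ± 0.23 (adjusted p = 3.91e-08). In atdamt1 it rose by 4.54 ± 0.23 (adjusted p = 6.76e-08). Of 4 genes on that list 2 passed the filter, and the other, HSFA1B, was not called in wild type (0.10 ± 0.13) and rose by 0.32 ± 0.13 in atdamt1 (adjusted p = 0.041). Under median-of-ratios scaling HSFA1B was called higher in wild type too (0.53, adjusted p = 0.00426). The genes below the filter, given without a test, had lower means after heat. HSFA6B went from 1.20 to 0.220 RPKM in wild type and from 0.874 to 0.236 RPKM in atdamt1. HSFC1 went from 0.502 to 0.151 RPKM and from 0.633 to 0.164 RPKM.

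The 4 groups allow the question whether the response to heat differs in atdamt1, and for the NAC genes no difference between the genotypes passed the test. Before heat, after heat and for the difference of the heat responses, 0 of 38 members were called by limma, against 0.0113%, 0% and 0% of all genes. No member reached an unadjusted p under 0.05 in any of the 3, where 4.63%, 7.52% and 3.38% of all genes did. The smallest adjusted p-values were 0.935, 0.718 and 0.979. No setting among the 21 others called a member. The METTL4 homologue AT1G19340 was tested too, and limma called no gene lower in atdamt1 before or after heat. Its lower mean in atdamt1 control (1.002 against 2.87 RPKM) thus went uncalled, so the lack of a call does not show equal levels.

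The atdamt1 minus wild type differences ranged from -0.44 (NAC003) to 0.19 (anac046) before heat and from -0.37 (NAC002) to 0.45 (NAC003) after it. The 95% interval lay within 1 log2 unit of 0 for 34 of the 38 members before heat, 36 after heat and 29 for the difference of the heat responses. The interval reached a median of 0.42 log2 units to each side of the estimate before heat and after it. For the difference of the heat responses it reached 0.60. Differences smaller than these may have been missed at this spread. For NAC002 the difference of heat responses was -0.26, with a 95% interval from -1.02 to 0.50. For NAC083 it was 0.11 (-0.62 to 0.84), for NAC055 0.40 (-0.08 to 0.87), and for NAC003, with the largest estimate, 0.89 (-0.24 to 2.03).

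NAC055 was the only member with every atdamt1 heat library above every wild type one, against 1.74% of all genes tested, and its difference there was 0.22 ± 0.15 (adjusted p = 0.741). NAC014 was the only one lower without overlap before heat, against 7.65%. Across the 38 members the heat changes of the 2 genotypes, which share no library, had a Pearson r of 0.960 and a Spearman rho of 0.926 and the same sign in 31. This describes genes, which are not replicates.

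**Figure D5:**
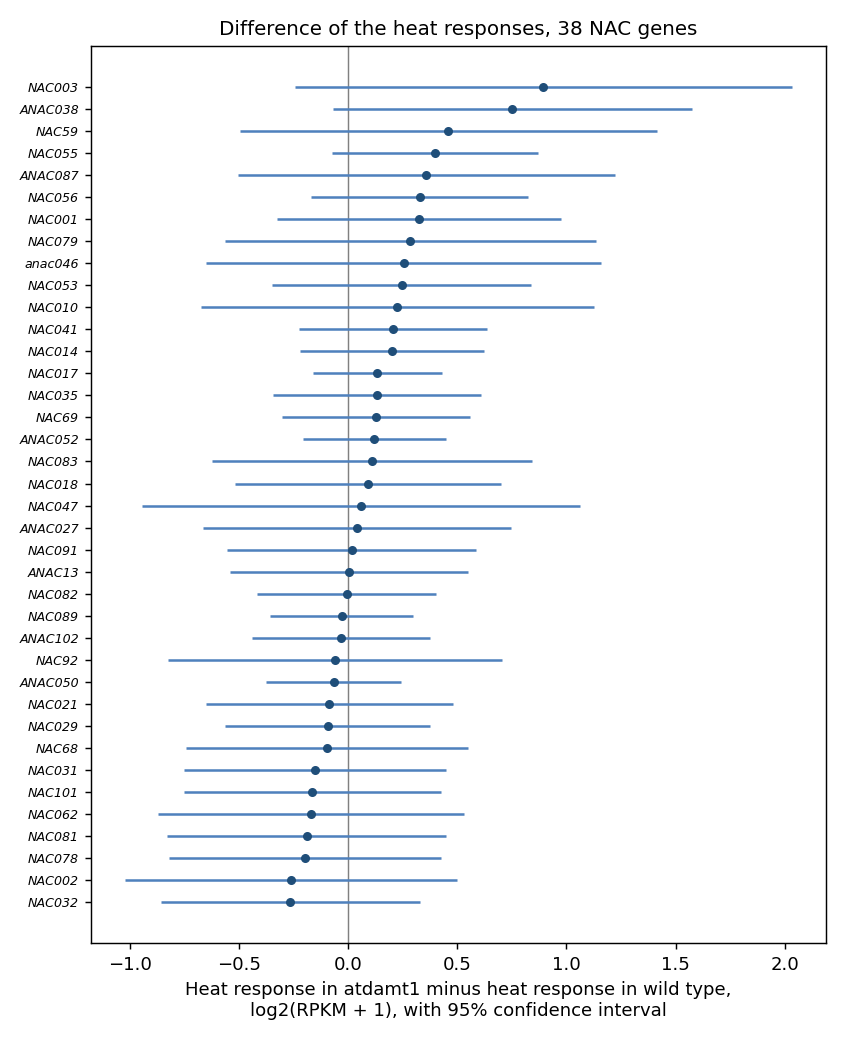
Heat response in atdamt1 minus heat response in wild type (x axis, log2(RPKM + 1)) for each of the 38 NAC genes (y axis), with the 95% confidence interval as a line. The estimates run from -0.26 (NAC032) to 0.89 (NAC003), and the interval includes 0 for all 38.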

How the data were processed

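The authors deposited 1 table of RPKM values for 12 libraries, 3 in each of 4 groups. Per the submitters' processing notes, STAR, DESeq2 and TAIR10 were used. How reads were counted, whether strand was used, and how reads matching several genes were treated is not given in the sources used here. RPKM was turned back to reads only to give depth and low counts: 24374 of 24599 genes (99.1%) came out within 0.1 reads of whole numbers in every library. Genes at 1 RPKM in at least 3 libraries (17628 of 32833) were tested with limma 3.58.1 in R 4.3.3 on log2(RPKM + 1), with a mean-variance trend and group means as the only terms (8 residual degrees of freedom), and two-sided p-values adjusted by Benjamini-Hochberg over all genes tested, threshold 0.05. The fit was tested on simulated data. No source says that replicates came from separate cultures, so the spread behind each p-value is that of libraries and may be technical.

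Members that passed the filter were named with values when on a role list, called with a log2 change of at least 1, or among the 5 most abundant in control or heat. NAC003, NAC056 and NAC079, and below the filter NAC004, NAC019, NAC030, NAC054, NAC073, NAC098, NAC100, anac075 and anac096, were named outside that rule, for their miR164 site, relatives or value. Members and lists were chosen with earlier results of these data known, and support nothing independently. Names, coordinates and sequences came from RefSeq TAIR10.1 and the promoter is the 250 bases before the annotated gene start. Replicate numbers were not used to pair the libraries in the reported fit. Alternatives were other pseudocounts, filters and scalings, 2 groups only, a replicate block, leaving out each library, and the chloroplast share as a covariate.

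Annotated genes overlap NAC002, ANAC13, NAC021, ANAC027, NAC035, NAC078, NAC081, NAC083, NAC101 and ANAC102, so their reads may be shared.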

Additional observations from a re-analysis of the deposited data

How the results depend on the processing

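Scaling moved the counts most. Under median-of-ratios scaling 4 members were lower in wild type, and 14 were higher and 5 lower in atdamt1. After quantile scaling 5 were lower in wild type, and 16 were higher and 5 lower in atdamt1. The background moved too: under median-of-ratios 28% of genes were higher and 27.4% lower in wild type. With the chloroplast share as a covariate, chosen after the data were seen, 7 were lower in atdamt1, and 9 single calls were lost there, among them NAC92 (-0.24) and NAC101 (0.79). That share was 3.17 to 6.01% in the atdamt1 heat libraries and at most 1.07% in the controls, and the cause was not tested.

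Among members called in either fit, signs turned in wild type for ANAC13 (quantile 0.007), NAC014 (quantile 0.347), ANAC050 (median-of-ratios 0.113, quantile 0.106) and NAC69 (0.392 and 0.496). In atdamt1 they turned for NAC017 (0.117 and 0.046), ANAC050 (0.083 and 0.046), ANAC052 (0.372 and 0.329) and NAC053 (quantile 0.467). Members called in neither fit also turned: 6 and 8 in wild type and 2 and 3 in atdamt1, under median-of-ratios and quantile scaling.

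Leaving out 1 library gave 8 to 9 higher and 10 to 15 lower in wild type, 7 to 10 higher and 11 to 14 lower in atdamt1, and 0 in every genotype comparison. Beside the calls named above, ANAC13, ANAC027, NAC032, NAC68 and ANAC050 in wild type and NAC031, ANAC13 and ANAC027 in atdamt1 lost theirs without at least 1 library.

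With the replicate block 9 members were higher and 13 lower in wild type, and 10 higher and 14 lower in atdamt1, where anac046 (0.585) was added. Correlations of same-numbered libraries, taken on deviations from group means of 3 libraries, ran from -0.425 to 0.527. They cannot settle whether the numbers pair libraries, since deviations within so small a group depend on each other. Of the 38 members, 17 lie below 5 RPKM throughout, where few reads limit the precision.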

Other observations

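The role lists also hold 15 NAC genes that the table names otherwise, of which 5 passed the filter. RD26, a dehydration factor related to NAC055, ranged from 2.40 to 3.42 RPKM in wild type control and from 7.16 to 11.6 RPKM after heat, and from 1.64 to 2.57 and 9.04 to 11.2 RPKM in atdamt1. It rose by 1.43 ± 0.18 (limma, adjusted p = 3.43e-05) and by 1.80 ± 0.18 (adjusted p = 6.15e-06). ANAC036, which limits cell size in leaves when overexpressed, rose in wild type by 1.13 ± 0.40 (adjusted p = 0.0277) and was at 0.60 ± 0.40 in atdamt1. SOG1, the central switch of the plant DNA damage response, was at 0.05 ± 0.14 and 0.04 ± 0.14. NTL9, an anchored factor of osmotic and immune responses, was at 0.04 ± 0.10 and 0.13 ± 0.10, and neither gene was called with the deposited values. Under median-of-ratios scaling limma called both higher in both genotypes. SOG1 was then at 0.47 (adjusted p = 0.00781) and 0.49 (adjusted p = 0.00637), and NTL9 at 0.50 (adjusted p = 0.000426) and 0.62 (adjusted p = 9.19e-05). JUB1, a longevity factor, was at -0.97 ± 0.44 (adjusted p = 0.075) in wild type and -0.15 ± 0.44 in atdamt1. Of 5 tested genes on the DNA damage list, 0 rose and 2 fell in each genotype, where 52.6% and 56.2% of all genes were lower. With median-of-ratios scaling wild type had 2 rises and 1 fall on that list (all genes 28% and 27.4%), and atdamt1 1 rise and 0 falls (27.5% and 27.3%). The difference of the heat responses was called for none of these.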
